A study of Mus musculus with 48 samples.

Results

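Esr1, Pgr, Prlr, Foxa1, Gata3 and Nr3c1 were followed as the hormone receptors and luminal cofactors of the mouse mammary gland, 6 genes of the 55487 in the expression table. They were found by symbol, each symbol occurred in 1 row, and all 6 are protein-coding. The table holds TPM (transcript abundance adjusted for length and scaled to the same total in every library) for 48 libraries of thoracic mammary gland from MMTV-rtTA/tet-op-Esr1 and MMTV-rtTA/tet-op-CYP19A1 mice, in 16 groups of 3. Both genotypes carry MMTV-rtTA, which places the tetracycline-controlled activator rtTA under the mouse mammary tumour virus promoter, and differ in the responder that it switches on, Esr1 or the aromatase gene CYP19A1. In each model, glands were taken at 12 and 18 months after 1 week of transgene induction or without it, at 24 months without induction or after 6 or 12 months of it, and at 30 months after 18 months of it. The groups without induction are the same transgenic mice, not wild type, and the labels name no parity. Library codes in the titles of the 1-week groups carry the word Doxy, and no label states the agent, its dose or its route further. Libraries of a group are titled as biological replicates, but whether each came from its own mouse is not stated; p-values thus measure library-to-library spread only.

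The estrogen receptor, encoded by Esr1, is a transcription factor activated by estrogen, and in the mammary gland it is made by a subset of luminal cells that sense hormones. Those cells also make the progesterone receptor (Pgr), a textbook estrogen target, and the prolactin receptor (Prlr), a membrane receptor that signals through Jak2 and Stat5. Foxa1 is a pioneer factor that opens chromatin for the estrogen receptor, Gata3 is a transcription factor needed for luminal fate, and Nr3c1 encodes the glucocorticoid receptor, which most cell types make. In whole gland, fewer cells of a type and less RNA per cell cannot be told apart.

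On the mouse build mm10 (GENCODE M21) Esr1 (ENSMUSG00000019768.16) lies at chr10:4611593-5005614, Pgr (ENSMUSG00000031870.16) at chr9:8899833-8968611 and Prlr (ENSMUSG00000005268.20) at chr15:10177238-10349180, all on the plus strand. Foxa1 (ENSMUSG00000035451.7) lies at chr12:57540628-57546916 and Gata3 (ENSMUSG00000015619.10) at chr2:9857078-9890034 on the minus strand. The bases upstream of the RefSeq start sites of Foxa1, Prlr and Pgr are shown because these 3 genes had the highest correlations with each other over the libraries. Each line holds the 250 bases before a start site on the gene's own strand, from the GRCm38.p6 table (the assembly behind mm10), at chr12:57546112-57546361 (minus strand) for Foxa1, chr15:10223656-10223905 (plus strand) for the second of 3 Prlr start sites, and chr9:8899583-8899832 (plus strand) for Pgr. Capitals mark motif matches, as read on the printed strand, so that TGTTTAC on the other strand reads GTAAACA and AGAACA reads TGTTCT.
Foxa1 promoter: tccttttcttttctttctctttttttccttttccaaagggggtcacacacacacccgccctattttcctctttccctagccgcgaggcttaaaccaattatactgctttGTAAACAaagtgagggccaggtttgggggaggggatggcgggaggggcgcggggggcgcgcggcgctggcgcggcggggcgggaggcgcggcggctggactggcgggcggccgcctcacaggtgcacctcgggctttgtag
Prlr promoter, second start site: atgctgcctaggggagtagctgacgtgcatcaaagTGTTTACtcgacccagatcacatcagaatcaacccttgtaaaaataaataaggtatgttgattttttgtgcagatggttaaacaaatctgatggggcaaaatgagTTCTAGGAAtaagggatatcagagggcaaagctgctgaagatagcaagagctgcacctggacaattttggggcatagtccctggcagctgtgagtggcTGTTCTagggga
Pgr promoter: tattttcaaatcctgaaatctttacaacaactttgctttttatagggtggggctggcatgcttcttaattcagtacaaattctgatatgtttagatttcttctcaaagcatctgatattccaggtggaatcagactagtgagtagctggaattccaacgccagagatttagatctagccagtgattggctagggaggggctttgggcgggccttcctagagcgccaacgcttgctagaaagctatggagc
The windows that were searched ran from 250 bases before to 50 after each start site, on both strands, for 7 motifs. They were the estrogen response element (GGTCA and TGACC spaced by 3 bases), the nuclear receptor hexamer (AGGTCA), the forkhead motif (TGTTTAC), the GATA motifs AGATAA and TGATAA, the hexamer shared by glucocorticoid and progesterone receptors (AGAACA) and the Stat motif (TTCNNNGAA). Foxa1 held a forkhead match 141 bases before its start site, and the second Prlr window held one 215 bases before its start site, a motif present in 3.65% of 32851 promoter windows. The second Prlr window also held a Stat match, found in 8.3% of all windows and in the second of 2 Esr1 windows, and the receptor hexamer AGAACA, found in 19.0%. No match lay in the windows of Pgr and Gata3, the first Esr1 window or the other two Prlr windows. A match is a run of letters, not a site shown to be bound.

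Of the 48 libraries, 9 had more than 10% of their TPM on ribosomal RNA-like features, which lowers the TPM of every other gene there. Of these libraries 7 were from CYP19A1 mice, among them all 3 of the group at 12 months with 1 week of induction (36.7% to 49.8%) and 2 of its uninduced group, 1 of which stood at 67.2%, the highest of the series. Where a result rests on them, values rescaled by the median of gene ratios (factors of 0.312 to 1.46 over the libraries) or values without them are given for the extremes and calls they decide. The group of CYP19A1 mice induced for 1 week at 12 months is wholly made of such libraries, and its rescaled means were 15.9 for Esr1, 2.12 for Pgr, 29.7 for Prlr, 4.79 for Foxa1, 15.3 for Gata3 and 35.5 for Nr3c1, all above the deposited means given below. The naming of libraries changes between 18 and 24 months of age, so age and any batch with that boundary cannot be told apart. TPM keep no read number, so the depth behind each value is unknown. In uninduced glands the 10 luminal epithelium markers summed to 144 to 753 TPM in Esr1 mice and 85.1 to 647 TPM in CYP19A1 mice.

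Esr1 lay between 5.61 and 25.9 TPM over 48 libraries, with a median of 13.8. In tet-op-Esr1 mice Esr1 averaged 14.6 ± 3.77 TPM after 1 week of induction and 12 ± 2.62 TPM without it at 12 months, and 17.9 ± 6.93 TPM after 1 week and 11.8 ± 3.11 TPM without it at 18 months (mean ± SD, n = 3). Esr1 in older Esr1 mice averaged 13.3 ± 2.91 TPM without induction, 11.3 ± 2.16 TPM after 6 months and 10.5 ± 3.78 TPM after 12 months of it at 24 months, and 11.6 ± 2.9 TPM after 18 months at 30 months. In tet-op-CYP19A1 mice Esr1 averaged 9.24 ± 2.92 TPM after 1 week of induction and 11.7 ± 5.32 TPM without it at 12 months, and 16.8 ± 4.04 TPM after 1 week and 15.2 ± 2.09 TPM without it at 18 months (mean ± SD, n = 3). Esr1 in older CYP19A1 mice averaged 15.4 ± 1.03 TPM without induction, 14 ± 0.748 TPM after 6 months and 15.6 ± 2.04 TPM after 12 months of it at 24 months, and 13.3 ± 0.908 TPM after 18 months at 30 months. As deposited, the highest group mean was that of Esr1 mice induced for 1 week at 18 months, where 1 library at 25.87 TPM stood above the other two at 13.90 and 13.82, and the lowest was that of CYP19A1 mice induced for 1 week at 12 months. The order turned with the scaling: rescaled by the median of ratios, that CYP19A1 group had the highest mean (15.9), and Esr1 mice induced for 12 months at 24 months had the lowest (9.52).

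Esr1 is the gene of the responder, and its level is the check of the labels; no induction in Esr1 mice was called. At 12 months Esr1 stood at 18.26, 10.73 and 14.91 TPM after 1 week of induction, against 11.65, 14.74 and 9.54 TPM without it, and the change was 0.26 (SE 0.30) on the log2 scale (adjusted p = 0.763). At 18 months the log2 change was 0.53 (SE 0.30) (adjusted p = 1), and at 24 months it was -0.22 (SE 0.30) after 6 months and -0.36 (SE 0.30) after 12 months (adjusted p = 1 for both). All log2 changes are of TPM + 1 from limma, adjusted over the 20209 tested genes by the Benjamini-Hochberg method, with a call at an adjusted p under 0.05. Induced and uninduced libraries overlapped in each of these 4 comparisons. Whether the table's Esr1 row takes in reads of the transgene is not given in the sources used here.

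Pgr, the progesterone receptor, was among the more variable genes of the gland. It ranged from 0.84 to 14.80 TPM with a median of 3.52, and its SD between libraries of a group, 0.80 on the log2 scale, was larger than that of 95.1% of tested genes. In tet-op-Esr1 mice Pgr averaged 5.26 ± 3.75 TPM after 1 week of induction and 3.93 ± 2.11 TPM without it at 12 months, and 3.68 ± 2.23 TPM after 1 week and 2.84 ± 1.02 TPM without it at 18 months (mean ± SD, n = 3). Pgr in older Esr1 mice averaged 2.57 ± 1.89 TPM without induction, 3.23 ± 3.28 TPM after 6 months and 1.49 ± 0.289 TPM after 12 months of it at 24 months, and 2.7 ± 2.34 TPM after 18 months at 30 months. In tet-op-CYP19A1 mice Pgr averaged 1.25 ± 0.125 TPM after 1 week of induction and 7.35 ± 6.63 TPM without it at 12 months, and 6.25 ± 4.74 TPM after 1 week and 6.15 ± 4.24 TPM without it at 18 months (mean ± SD, n = 3). Pgr in older CYP19A1 mice averaged 5.76 ± 2.66 TPM without induction, 7.4 ± 6.2 TPM after 6 months and 5.65 ± 2.09 TPM after 12 months of it at 24 months, and 6.13 ± 2.28 TPM after 18 months at 30 months. All CYP19A1 groups but one averaged above every Esr1 group, and the exception, CYP19A1 mice induced for 1 week at 12 months, had the lowest mean of the 16 groups as deposited. Rescaled, its mean was 2.12, and Esr1 mice induced for 12 months at 24 months had the lowest, 1.35.

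Prlr, the receptor for prolactin and placental lactogens, was the second most abundant of the 6 genes, from 5.35 to 68.83 TPM with a median of 22.1. In tet-op-Esr1 mice Prlr averaged 33.1 ± 10.4 TPM after 1 week of induction and 28.7 ± 6.42 TPM without it at 12 months, and 25.5 ± 9.97 TPM after 1 week and 21.5 ± 10.5 TPM without it at 18 months (mean ± SD, n = 3). Prlr in older Esr1 mice averaged 20.6 ± 8.99 TPM without induction, 15.2 ± 11.5 TPM after 6 months and 10.9 ± 2.41 TPM after 12 months of it at 24 months, and 20.3 ± 12.5 TPM after 18 months at 30 months. In tet-op-CYP19A1 mice Prlr averaged 16.7 ± 9.29 TPM after 1 week of induction and 36.5 ± 29.9 TPM without it at 12 months, and 31.4 ± 13 TPM after 1 week and 27.5 ± 12.9 TPM without it at 18 months (mean ± SD, n = 3). Prlr in older CYP19A1 mice averaged 22.6 ± 7.9 TPM without induction, 27.6 ± 21.1 TPM after 6 months and 21.2 ± 6.27 TPM after 12 months of it at 24 months, and 19.7 ± 5.11 TPM after 18 months at 30 months. The lowest mean belonged to Esr1 mice induced for 12 months at 24 months, and the highest to uninduced CYP19A1 mice at 12 months, whose libraries stood at 9.90, 68.83 and 30.63 TPM.

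Foxa1, the pioneer factor, was the scarcest member. It ran from 0.18 to 5.53 TPM, and 11 of 48 libraries were under 1 TPM. In tet-op-Esr1 mice Foxa1 averaged 2.66 ± 1 TPM after 1 week of induction and 1.99 ± 0.703 TPM without it at 12 months, and 1.59 ± 1.1 TPM after 1 week and 1.39 ± 0.837 TPM without it at 18 months (mean ± SD, n = 3). Foxa1 in older Esr1 mice averaged 1.08 ± 0.934 TPM without induction, 1.01 ± 1.06 TPM after 6 months and 0.51 ± 0.115 TPM after 12 months of it at 24 months, and 1.44 ± 1.16 TPM after 18 months at 30 months. In tet-op-CYP19A1 mice Foxa1 averaged 2.65 ± 1.91 TPM after 1 week of induction and 3.25 ± 2.2 TPM without it at 12 months, and 3.32 ± 1.74 TPM after 1 week and 2.38 ± 1 TPM without it at 18 months (mean ± SD, n = 3). Foxa1 in older CYP19A1 mice averaged 2.42 ± 0.567 TPM without induction, 2.54 ± 1.67 TPM after 6 months and 2.19 ± 0.67 TPM after 12 months of it at 24 months, and 2.57 ± 0.133 TPM after 18 months at 30 months. Esr1 mice induced for 12 months had the lowest values as a group, 0.50, 0.40 and 0.63 TPM.

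Gata3, the luminal fate factor, ranged from 2.94 to 29.09 TPM with a median of 9.18. In tet-op-Esr1 mice Gata3 averaged 21.5 ± 6.59 TPM after 1 week of induction and 16 ± 5.18 TPM without it at 12 months, and 20.9 ± 0.1 TPM after 1 week and 15.6 ± 8.87 TPM without it at 18 months (mean ± SD, n = 3). Gata3 in older Esr1 mice averaged 5.72 ± 1.7 TPM without induction, 6.32 ± 1.73 TPM after 6 months and 8.12 ± 4.3 TPM after 12 months of it at 24 months, and 7.6 ± 4.57 TPM after 18 months at 30 months. In tet-op-CYP19A1 mice Gata3 averaged 8.69 ± 4.48 TPM after 1 week of induction and 17.6 ± 12.7 TPM without it at 12 months, and 11.3 ± 3.84 TPM after 1 week and 10.8 ± 5.08 TPM without it at 18 months (mean ± SD, n = 3). Gata3 in older CYP19A1 mice averaged 6.83 ± 1.25 TPM without induction, 7.9 ± 5.88 TPM after 6 months and 7.8 ± 2.94 TPM after 12 months of it at 24 months, and 7.04 ± 2.1 TPM after 18 months at 30 months. Every group at 24 or 30 months averaged below every group at 12 or 18 months, which is also the boundary of the titles' naming pattern.

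Nr3c1 (ENSMUSG00000024431.15), the glucocorticoid receptor gene, lies on the minus strand at chr18:39410545-39519421 and was the most abundant member, from 12.96 to 52.07 TPM with a median of 35.8. In tet-op-Esr1 mice Nr3c1 averaged 38.1 ± 2.88 TPM after 1 week of induction and 36.3 ± 3.79 TPM without it at 12 months, and 38.4 ± 6.34 TPM after 1 week and 36.4 ± 5.43 TPM without it at 18 months (mean ± SD, n = 3). Nr3c1 in older Esr1 mice averaged 35.3 ± 8.73 TPM without induction, 34 ± 6.57 TPM after 6 months and 32.5 ± 5.34 TPM after 12 months of it at 24 months, and 24.9 ± 5.1 TPM after 18 months at 30 months. In tet-op-CYP19A1 mice Nr3c1 averaged 22 ± 6.43 TPM after 1 week of induction and 30.6 ± 15.8 TPM without it at 12 months, and 33 ± 2 TPM after 1 week and 37 ± 8.79 TPM without it at 18 months (mean ± SD, n = 3). Nr3c1 in older CYP19A1 mice averaged 39.4 ± 6.74 TPM without induction, 44.6 ± 9.65 TPM after 6 months and 43.5 ± 6.88 TPM after 12 months of it at 24 months, and 34.3 ± 3.43 TPM after 18 months at 30 months. Rescaled by the median of ratios its highest library was 1.92 times its lowest, against 4.02 times as deposited.

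**Figure D1:**
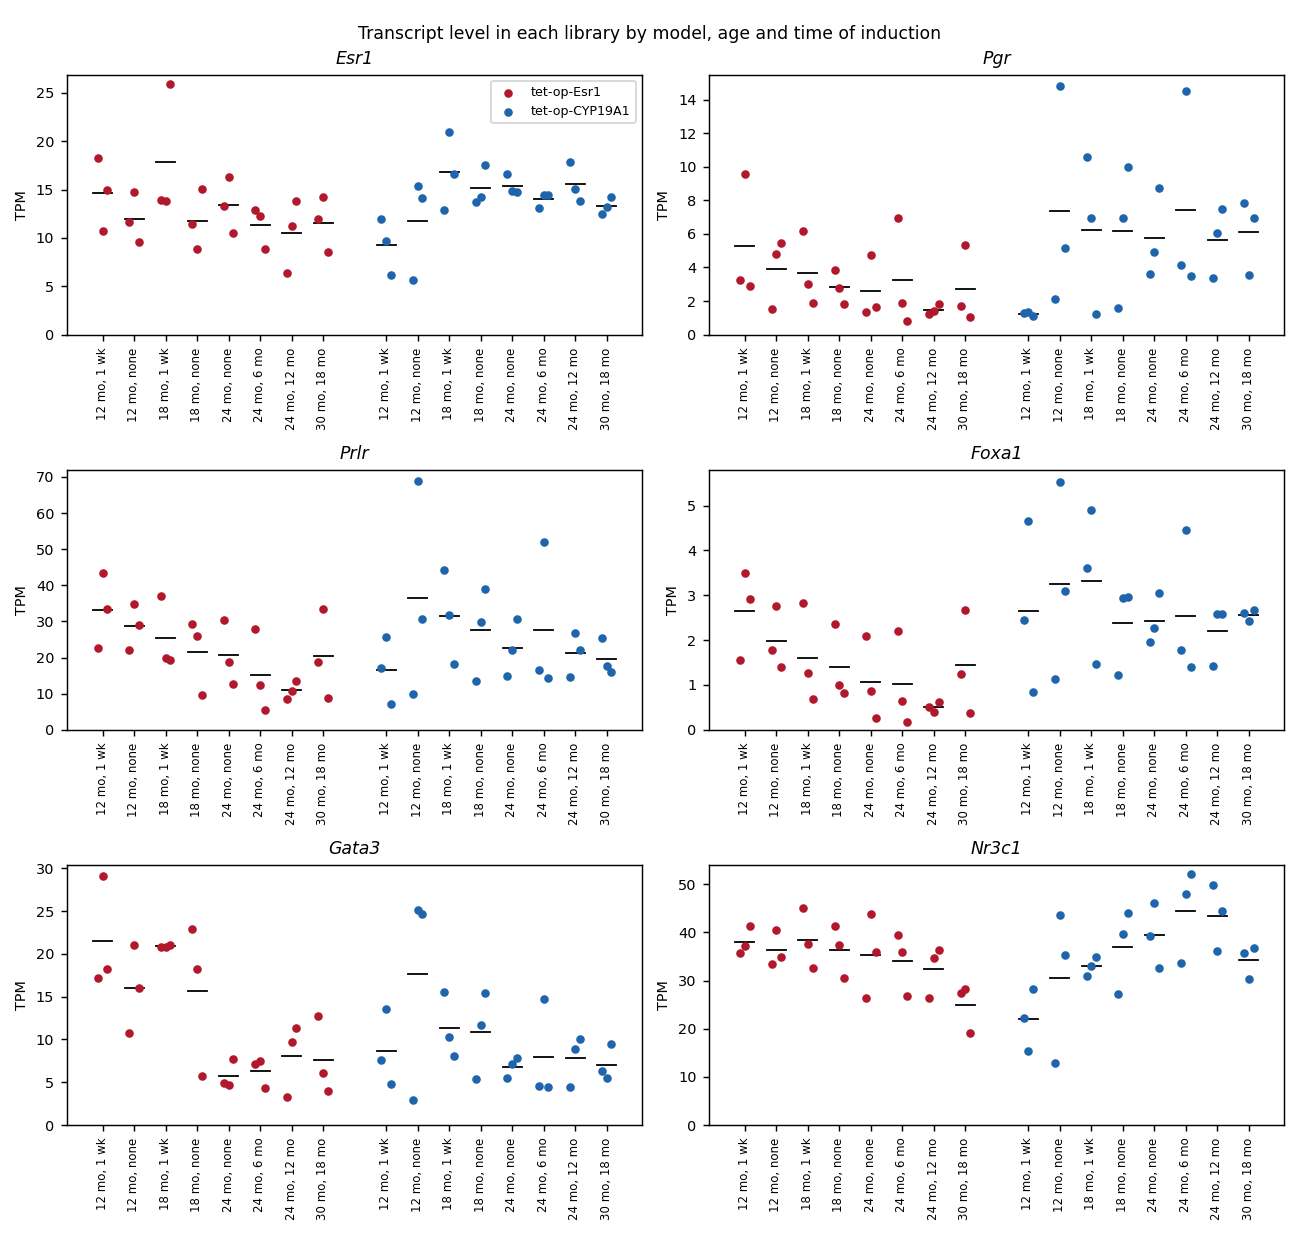
TPM (vertical axes, from 0) of the 6 genes in each of 48 libraries, by age and time of induction, with tet-op-Esr1 mice in red and tet-op-CYP19A1 mice in blue; points are libraries and bars are means of 3. Pgr and Foxa1 sit lower in most red groups than in most blue ones, and the Gata3 means at 24 and 30 months lie below those at 12 and 18 months.

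None of the 6 genes passed the F test for any difference among the 16 groups (limma, adjusted p 0.0771 for Gata3, 0.126 for Foxa1, 0.167 for Nr3c1, 0.213 for Pgr, 0.259 for Esr1 and 0.475 for Prlr), while 22.2% of tested genes passed it. The order of the group means given above is therefore not resolved beyond the spread between libraries. Esr1 and Nr3c1 had within-group SDs of 0.36 and 0.34 on the log2 scale, near the 0.38 median of all tested genes. The SDs of Prlr (0.74), Gata3 (0.69) and Foxa1 (0.55) were larger than that median.

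The clearest difference lay between the models after long induction. Foxa1 was lower in Esr1 mice than in CYP19A1 mice over the groups induced for 6, 12 and 18 months, and Pgr missed the threshold with a larger difference. Foxa1 ran from 0.18 to 2.68 TPM with a median of 0.63 in the 9 long-induced Esr1 libraries, against 1.39 to 4.46 TPM with a median of 2.58 in the 9 CYP19A1 libraries. Of the Esr1 libraries, 7 lay below the lowest CYP19A1 library, and the other two, at 2.21 and 2.68 TPM, lay inside the CYP19A1 range. It averaged 0.987 ± 0.886 TPM in Esr1 mice and 2.43 ± 0.921 TPM in CYP19A1 mice (SD, n = 9 each), a log2 change of -0.86 (SE 0.25) with an adjusted p of 0.0388 (limma). It was the only 1 of the 6 genes called, while 4.15% of all tested genes were called, 238 higher and 601 lower in Esr1 mice. Scaled by the median of ratios 9.84% were called, 1033 higher and 956 lower, and scaled to protein-coding TPM 8.02%, 657 higher and 964 lower.

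Pgr ran from 0.84 to 6.97 TPM with a median of 1.68 in long-induced Esr1 libraries, against 3.39 to 14.54 TPM with a median of 6.04 in long-induced CYP19A1 libraries. Again 7 of 9 Esr1 libraries lay below the lowest CYP19A1 library, and the other two stood at 5.37 and 6.97 TPM. It averaged 2.47 ± 2.16 TPM in Esr1 mice and 6.39 ± 3.55 TPM in CYP19A1 mice (SD, n = 9 each), a log2 change of -1.16 (SE 0.35) with an adjusted p of 0.053. The change was past the threshold under both rescalings, at -1.05 (adjusted p = 0.0257) and -1.32 (adjusted p = 0.0297). The other members had smaller differences: Prlr -0.61 (SE 0.33) with an adjusted p of 0.342, Nr3c1 -0.41 (SE 0.17) with 0.163, Esr1 -0.36 (SE 0.17) with 0.258, and Gata3 -0.05 (SE 0.31) with 0.949. The median of all tested genes was -0.12 on the same scale. Nr3c1, like Pgr, was called lower in Esr1 mice under both rescalings.

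The call on Foxa1 was lost in most fits that left out a library. A fit on the libraries under 10% ribosomal RNA left out all 9 libraries above that share. Of these, 2 were long-induced: replicate 3 of the Esr1 groups at 24 months with 6 months of induction and at 30 months. In that fit the log2 change was -0.63 (limma, adjusted p = 0.122), so the call was lost. Leaving out 1 of the 18 libraries at a time gave log2 changes between -0.99 and -0.74, and the call was lost in 13 of the 18 fits (adjusted p up to 0.123, without replicate 3 of the Esr1 group at 24 months with 6 months of induction). Pgr was called in 5 of those 18 fits, and its log2 change lay between -1.36 and -0.97 over all 18. Among cell type markers, 1 of 7 for endothelium (Kdr) and 1 of 5 for brown fat (Ucp1) were also called lower in long-induced Esr1 mice. So were 2 of 4 tested keratinocyte markers, Krt6a and Sprr1a, which averaged only 0.526 and 0.548 TPM over all libraries. The share of all tested genes called there was 4.15%. The part of these cell types in the result was not tested.

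In uninduced glands both genes had negative changes that did not pass. Foxa1 averaged 1.48 ± 0.823 TPM in uninduced Esr1 mice and 2.68 ± 1.31 TPM in uninduced CYP19A1 mice (SD, n = 9 each; log2 change -0.57 (SE 0.25), limma adjusted p = 0.221). Pgr averaged 3.11 ± 1.63 TPM and 6.42 ± 4.22 TPM in the same order (log2 change -0.74 (SE 0.35), limma adjusted p = 0.264). None of the 6 genes was called as deposited, against 2.95% of tested genes, 398 higher and 198 lower in Esr1 mice. Of the 6, 2 had an unadjusted p under 0.05 (limma), against 17.7% of tested genes. Among libraries with under 10% ribosomal RNA, Pgr (-1.26, limma adjusted p = 0.0364) and Foxa1 (-0.87, adjusted p = 0.0257) were called lower, while 12.8% of the 20038 genes tested there were called, 264 higher and 2297 lower. The 4 uninduced libraries left out there were all from CYP19A1 mice. The split of all calls turned with the scaling, to 1813 higher and 1566 lower by the median of ratios and to 543 higher and 3494 lower by protein-coding TPM, with the median of all genes at 0.10 as deposited, 0.02 by the median of ratios and -0.14 by protein-coding TPM.

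**Figure D2:**
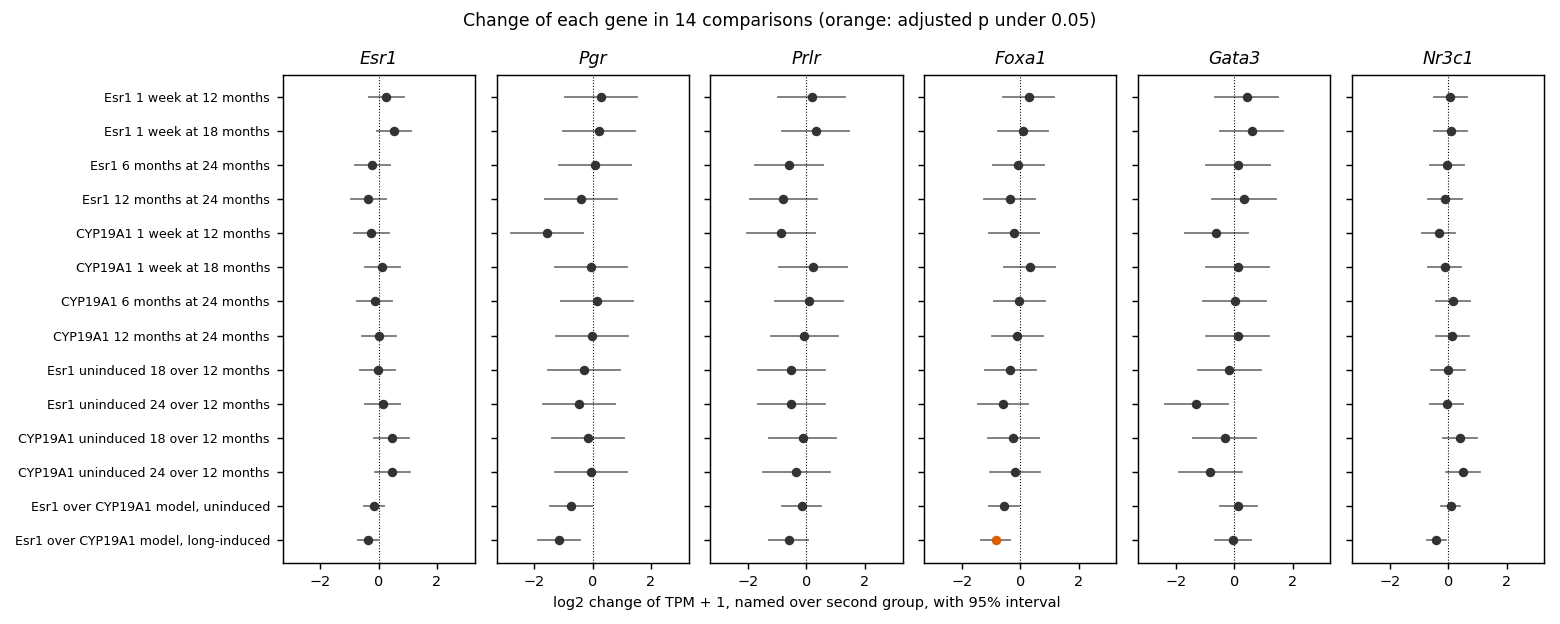
Log2 change of TPM + 1 (horizontal axes) with its 95% interval for the 6 genes in 14 comparisons, first-named group over second; orange marks an adjusted p under 0.05. The only orange point is Foxa1 in long-induced Esr1 over CYP19A1 mice, at -0.86.

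Relative to luminal markers, Pgr and Foxa1 were both called lower in long-induced Esr1 mice. The summed TPM of the 10 luminal markers ran from 168 to 509.9 with a median of 374 in long-induced Esr1 libraries, against 139 to 497 with a median of 208 in long-induced CYP19A1 libraries, and 0 of the 10 markers passed. With every gene taken relative to the luminal score, the mean log2(TPM + 1) of those markers, Pgr was lower in long-induced Esr1 mice by a log2 change of -1.49 (SE 0.33, limma adjusted p = 0.00515) and Foxa1 by -1.19 (SE 0.30, adjusted p = 0.0262). The median of all tested genes was -0.45 on that scale. These were 2 of 6 members, against 1.58% of tested genes, 62 higher and 258 lower, and in uninduced mice 0 of 6 were called, against 0.935%. Prlr had -0.94 (adjusted p = 0.0634) and Gata3 -0.38 (adjusted p = 0.181). The scale was chosen after the values were seen. The milk protein gene Csn2, made by alveolar luminal cells, stood at 2231 ± 2181 TPM in these Esr1 mice and 113 ± 194 TPM in these CYP19A1 mice, and the part of milk-producing cells in the result was not tested.

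Ratios between members within a library do not depend on its scaling, and that of Prlr to Foxa1 separated the models after long induction. After long induction the ratio of Prlr to Foxa1 TPM ran from 12.5 to 29.7 (median 19.0) in 9 Esr1 libraries, against 5.93 to 11.6 (median 9.8) in 9 CYP19A1 libraries. The models did not overlap, and the ratio was 2.07 times as high in Esr1 mice. Foxa1, the divisor, averaged only 0.987 TPM in these Esr1 libraries and was itself lower there. The ratio is thus not independent of the Foxa1 result, and its tests are not separate evidence about Prlr. Ratios of genes outside the 6 to Foxa1 were not computed. An exact two-sided permutation test within the 3 times of induction gave p = 0.00025, the smallest that its 8000 arrangements allow (adjusted p = 0.00375 over 15 such tests). In uninduced glands the same ratio was 1.74 times as high in Esr1 mice, with overlap (exact permutation p = 0.0025, adjusted p = 0.00937). It was higher in Esr1 mice in 3 of 3 times of induction and at 3 of 3 uninduced ages.

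The ratio of Pgr to Prlr ran from 0.0891 to 0.25 in long-induced Esr1 libraries, against 0.201 to 0.438 in long-induced CYP19A1 libraries, with overlap. It was lower in Esr1 mice, at 0.526 times in long-induced Esr1 over CYP19A1 mice (exact permutation p = 0.0005, adjusted p = 0.00375) and 0.591 times in uninduced mice (exact permutation p = 0.018, adjusted p = 0.045). Gata3 to Foxa1 ran from 2.29 to 24.4 in long-induced Esr1 libraries, against 2.25 to 3.88 in long-induced CYP19A1 libraries. It was 3.13 times as high after long induction (exact permutation p = 0.0025, adjusted p = 0.00937) and 2.19 times without induction (exact permutation p = 0.0055, adjusted p = 0.0165). Pgr to Foxa1, in contrast, had medians of 2.86 and 2.51 in long-induced Esr1 and CYP19A1 mice (exact permutation p = 0.49), and Esr1 to Nr3c1 had medians of 0.341 and 0.358 (exact permutation p = 0.769). Gata3 to Foxa1 has the same scarce divisor as Prlr to Foxa1. These ratios, too, were chosen after the values were seen.

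**Figure D3:**
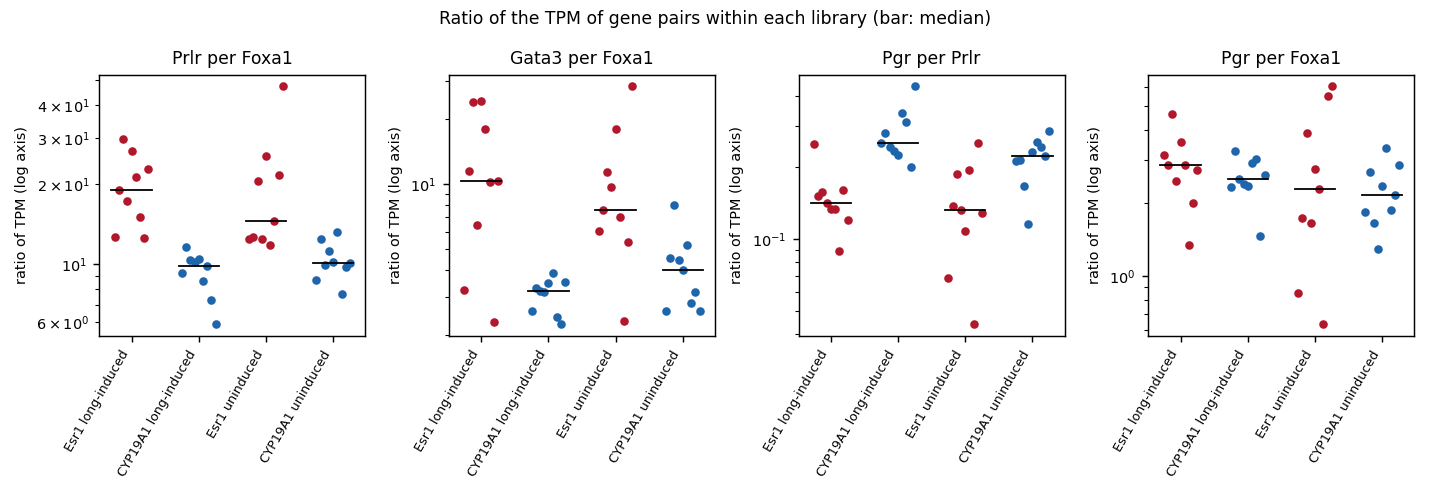
Ratio of TPM of gene pairs within each library (vertical log axes) for long-induced and uninduced Esr1 (red) and CYP19A1 (blue) mice, 9 libraries each, with medians as bars. Prlr per Foxa1 does not overlap between the models after long induction, at medians of 19.0 and 9.8, and Pgr per Foxa1 does.

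None of the members was called with induction. In each of the 8 comparisons of an induced with its uninduced group, 0 of 6 genes passed (limma), against 0.0099% of tested genes in Esr1 mice after 1 week at 12 months, 0.00495% after 12 months at 24 months, 0.0198% in CYP19A1 mice after 12 months at 24 months, and 0% in the other comparisons. At an unadjusted p under 0.05 there was 1 member in 1 of the 8, Pgr in CYP19A1 mice after 1 week at 12 months. Of all tested genes, 6.78% were under that p there. Averaged over the 4 inductions of a model, for Esr1 mice the log2 change was 0.05 (SE 0.17) for Esr1, 0.05 (SE 0.34) for Pgr and -0.02 (SE 0.24) for Foxa1, and for CYP19A1 mice it was -0.06 (SE 0.17), -0.37 (SE 0.34) and -0.01 (SE 0.24) in the same order. After 6 and 12 months the comparisons share their uninduced group at 24 months. The difference between the models in the response to induction called 0 of 6 genes and 0% of tested genes, for 1 week as for long induction (limma; 1297 and 236 genes had an unadjusted p under 0.05). Without uninduced CYP19A1 replicate 1 at 12 months, the library with the most ribosomal RNA, the 1-week difference was called for Esr1 (0.66) and Gata3 (1.21), and also for 34.6% of the genes tested in that fit, so these 2 of 6 calls are no result about the members.

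The largest change with induction was that of Pgr in CYP19A1 mice after 1 week at 12 months. Pgr stood at 1.31, 1.34 and 1.11 TPM in induced libraries, against 2.10, 14.80 and 5.14 TPM in uninduced ones. All 3 induced libraries were below all 3 uninduced ones, yet the log2 change of -1.57 (SE 0.61) had an unadjusted p of 0.0142 and an adjusted p of 0.548 (limma), and 0% of tested genes were called there (1370 had an unadjusted p under 0.05). The median log2 change of all tested genes was -0.32, and how many of them separated in this way was not counted. Foxa1 in the same libraries was at 2.44, 4.66 and 0.85 TPM after induction, against 1.14, 5.53 and 3.09 TPM without it, and overlapped. The ratio of Pgr to Foxa1 was 0.288, 0.537 and 1.31 in induced libraries, against 1.66, 1.84 and 2.68 in uninduced ones, and the groups were separate (exact permutation p = 0.1, the smallest that 3 against 3 allows). Of the 6 libraries, 5 had much ribosomal RNA. Rescaled by the median of ratios, the log2 change of Pgr was -1.33. The 10 luminal markers (0 called) summed to 97.2, 167 and 205 TPM after induction, from lowest to highest, against 85.1, 561 and 647 TPM without it, and their part in the result was not tested. Without uninduced replicate 1, the library at 67.2% ribosomal RNA, 12423 genes were called, 61.5% of those tested and nearly all lower, and among the members Esr1, Pgr, Prlr, Gata3 and Nr3c1 were called lower.

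At 24 over 12 months of age Gata3 had the largest change of the 6 genes in both models, and it missed the threshold. In uninduced Esr1 mice Gata3 stood at 4.87, 4.62 and 7.68 TPM at 24 months, against 10.73, 21.08 and 16.07 TPM at 12 months. All older libraries were below all younger ones, and the log2 change was -1.32 (SE 0.54) with an unadjusted p of 0.0189 and an adjusted p of 0.453 (limma). Of all tested genes, 7.68% had an unadjusted p under 0.05 there, and how many separated in this way was not counted. In uninduced CYP19A1 mice Gata3 stood at 5.45, 7.15 and 7.89 TPM at 24 months, against 2.94, 25.18 and 24.71 TPM at 12 months, a log2 change of -0.83 (SE 0.54) (adjusted p = 0.517). Without uninduced 12-month replicate 1 that change was -1.74 and was called, with 3.52% of the genes tested in that fit (limma, adjusted p = 0.0461). Nr3c1 was called higher, at 0.83, without uninduced 12-month replicate 2, where 16.8% of genes were called, 3354 higher and 19 lower (limma, adjusted p = 0.049). None of the 6 genes was called with age in either model on all libraries, while 0.574% of tested genes were called from 12 to 24 months in Esr1 mice and 4.24% in CYP19A1 mice; for 18 over 12 months the shares were 0% and 0.0099%. All 8 skeletal muscle markers rose in that CYP19A1 comparison, summing to 15363 to 23869 TPM at 24 months, against 498 to 4086 TPM at 12 months. Between 30 and 24 months of age in long-induced glands, 0 of 6 members passed in either model (0.139% of tested genes in Esr1 mice and 0% in CYP19A1 mice).

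The 5 other genes were related to Esr1 over the 48 libraries, and where they stood among all genes depended on the scaling. On log2(TPM + 1) Pearson's r with Esr1 was 0.567 for Nr3c1, 0.436 for Prlr, 0.386 for Pgr, 0.355 for Foxa1 and 0.314 for Gata3. Permutation tests with 100000 resamples gave adjusted p over the 5 relations of 0.0002, 0.00475, 0.0103, 0.0156 and 0.0291 in that order. Spearman's rho was 0.484, 0.341, 0.401, 0.354 and 0.195 (permutation adjusted p = 0.00225, 0.0224, 0.0127, 0.0223 and 0.183). These resamples moved libraries across groups, so differences between groups count in them. For deviations from group means, resampled within groups, none of the 5 relations passed (permutation adjusted p = 0.333 for Pgr and 0.15 for each of the others). The median r of all tested genes with Esr1 was 0.372 as deposited; Foxa1 and Gata3 lay below it, and Nr3c1 lay above 94.4% of genes.

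Rescaling changed both the values and the standing of the genes. By the median of ratios the median r over all genes was -0.01, and r with Esr1 was 0.355 for Foxa1, 0.339 for Nr3c1 (permutation adjusted p = 0.0493 for both), 0.219 for Prlr, 0.0885 for Pgr and -0.029 for Gata3, with Foxa1 above 90.9% and Nr3c1 above 89.5% of genes. Spearman's rho on that scale was 0.314 for Foxa1 and 0.288 for Nr3c1, and neither passed (permutation adjusted p = 0.124 for both). By protein-coding TPM, where the median r over all genes was 0.10, Foxa1 had 0.532 (permutation adjusted p = 0.00065), above 98.5% of genes, Prlr 0.42 (adjusted p = 0.00712), above 93.3%, and Nr3c1 0.392 (adjusted p = 0.0104), above 91.1%. By Spearman's rho Foxa1 and Prlr passed there too, while Nr3c1 did not (rho = 0.299, permutation adjusted p = 0.0661). Among the 39 libraries with under 10% ribosomal RNA, r was between 0.0944 and 0.285 and none of the 5 relations passed. Values within each naming pattern of the libraries are given without a test of their difference. In the 24 libraries at 24 and 30 months r was 0.611 for Pgr, 0.593 for Prlr, 0.619 for Foxa1, 0.298 for Gata3 and 0.681 for Nr3c1, with all but Gata3 above at least 94.1% of genes. In the 24 libraries at 12 and 18 months it was 0.253, 0.375, 0.198, 0.4 and 0.522 in the same order, and none passed there. Without the 2 libraries farthest from the median of Esr1, both from CYP19A1 mice at 12 months, r was 0.182 for Gata3, which no longer passed, and 0.315 to 0.447 for the other four.

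**Figure D4:**
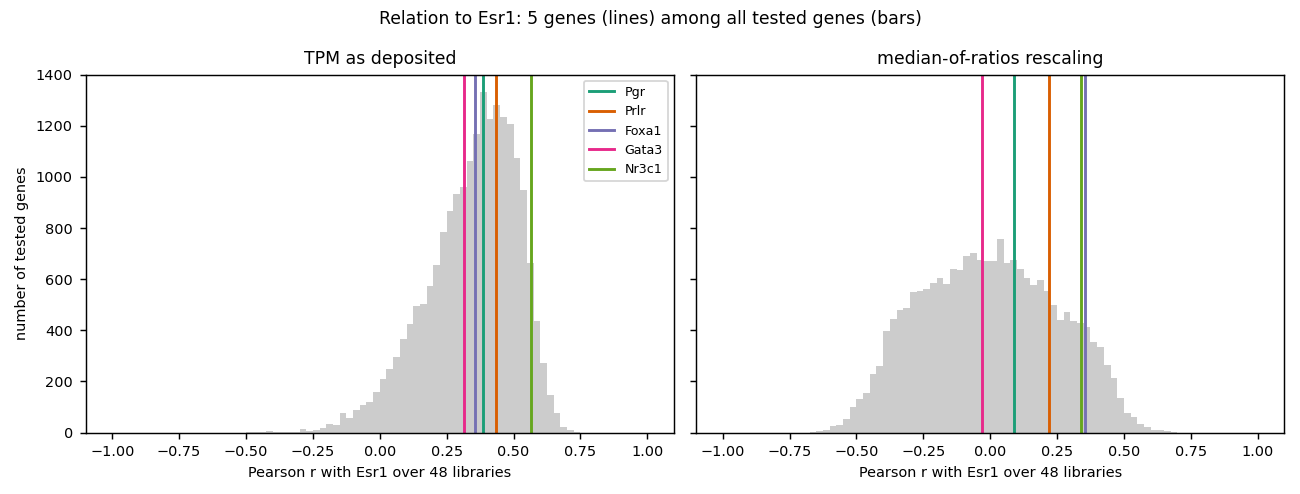
Number of tested genes (vertical axes) by Pearson's r with Esr1 over 48 libraries (horizontal axes), on TPM as deposited (left) and after median-of-ratios rescaling (right), with lines at the 5 genes. On deposited values the bulk of all genes is centred on 0.372 with Foxa1 and Gata3 below that, and after rescaling it is centred near 0 with Foxa1 and Nr3c1 toward its upper end.

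Among the 10 pairs without Esr1, computed after the values were seen, the highest r were those between Prlr, Foxa1 and Pgr. Prlr and Foxa1 had r = 0.839 over 48 libraries (rho = 0.845), Pgr and Prlr 0.773 (rho = 0.728), and Pgr and Foxa1 0.737 (rho = 0.727). Permutation p was 1e-05 for r and rho in each, the smallest that 100000 resamples can give, and 2.5e-05 after adjustment over the 10 pairs without Esr1. After rescaling by the median of ratios r was 0.848, 0.682 and 0.655. For Prlr and Foxa1 it was 0.78 at 12 and 18 months, 0.871 at 24 and 30 months, 0.919 within Esr1 mice, 0.887 within CYP19A1 mice and 0.915 for deviations from group means. Without the 2 libraries farthest from the median of the first-named gene of each pair, r stayed at 0.802, 0.723 and 0.689 for the 3 pairs. Libraries high in one of these genes thus tended to be high in the others, within groups as well.

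**Figure D5:**
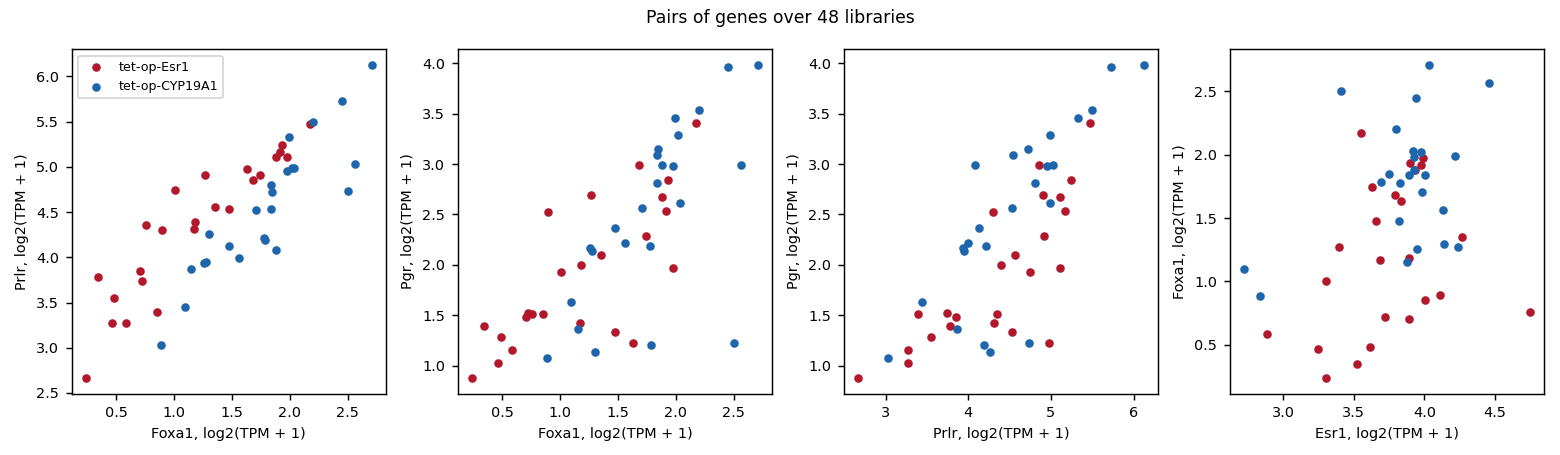
Log2(TPM + 1) of gene pairs in 48 libraries, with Esr1 mice in red and CYP19A1 mice in blue. Prlr rises with Foxa1 in both models (r = 0.919 in Esr1 mice and 0.887 in CYP19A1 mice); Foxa1 against Esr1, in the last panel, has r = 0.355.

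Gata3 followed the luminal markers most closely. Of 24 relations between the members and marker scores, Gata3 with the luminal score had the highest r, 0.877 (rho = 0.871, permutation adjusted p = 0.00012), 0.812 after rescaling and 0.941 for deviations from group means. Nr3c1 with the score of 8 fibroblast markers had 0.801 (rho = 0.8, permutation adjusted p = 0.00012), which was 0.328 after rescaling. Prlr with the luminal score had 0.586, Pgr 0.336, and Foxa1 0.193 (permutation adjusted p = 0.00024, 0.0431 and 0.281), and after rescaling these were 0.345, 0.0237 and -0.0126. Pgr had a higher r with the fibroblast score, 0.564 (permutation adjusted p = 0.00024), which was 0.351 after rescaling. Nr3c1 and Esr1 with the luminal score had 0.492 and 0.325, which turned to -0.493 and -0.218 after rescaling. Without the 2 farthest libraries the first 2 of these relations had r = 0.855 and 0.746, and within the 12- and 18-month and 24- and 30-month libraries they had 0.946 and 0.81, and 0.794 and 0.815.

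The genes most like each member over 48 libraries, by Pearson's r on rescaled values among 11352 protein-coding candidates, are given as a description. Foxa1 was nearest to Ptn, the growth factor pleiotrophin (r = 0.871), Fgfr2, a fibroblast growth factor receptor (0.851), Prlr (0.848), Gipc2 (0.842) and Bcl9l (0.821). Prlr was nearest to Tspan1 (0.877), Mtmr7 (0.872), the luminal keratin Krt7 (0.853), Foxa1 (0.848) and Gipc2 (0.823), so both gene lists hold each other's member and Gipc2. Pgr was nearest to Slc5a5, the sodium iodide symporter (0.898), the chemokine Cxcl15 (0.876), Rasgrf1 (0.797), Nrxn3 (0.789) and Samd5 (0.757). Gata3 had Tead2 (0.894), Tfap2a (0.881), Atat1 (0.871), Sox9 (0.870) and Tcf7l2 (0.870), 4 of which are transcription factor genes. Esr1 had no partner above 0.678, with Faap100 (0.678), Rgma (0.668), Ccnk (0.660) and Ccdc97 (0.657) among the nearest. Nr3c1 had Psph (0.767), Tmem177 (0.767), Apopt1 (0.763), the mitochondrial ribosomal protein gene Mrps11 (0.761) and Nfu1 (0.754).

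Few partners and targets of the receptors were called between groups. Among 6 other steroid receptor genes, Esr2 was at most 0.39 TPM and was not tested, and none of the 5 tested was called in any of 20 comparisons; the 2 most abundant, Pgrmc1 and Pgrmc2, membrane-associated progesterone receptor components, averaged 35.3 and 16.3 TPM over the libraries. None of 15 coregulator and chaperone genes (Hsp90ab1 and Ncor1 averaging 299.6 and 70.8 TPM) and none of 15 luminal transcription factor genes (Xbp1 and Trps1 averaging 111 and 79.1 TPM) was called in any comparison. In long-induced Esr1 over CYP19A1 mice, 1 of 16 tested estrogen and progesterone targets was higher and 1 lower. Calca, which encodes calcitonin, averaged 14.6 ± 13.1 TPM in Esr1 mice and 0.511 ± 0.252 TPM in CYP19A1 mice (log2 change 2.63, limma adjusted p = 0.034), and Stc2, a secreted glycoprotein gene, 5.35 ± 2.06 and 13 ± 4.05 TPM (-1.15, adjusted p = 0.00243). Stc2 was also lower in uninduced Esr1 mice, at 5.62 ± 1.17 TPM, against 14.2 ± 7.75 TPM in uninduced CYP19A1 mice (-1.07, adjusted p = 0.00642).

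Of 11 tested genes of prolactin and Stat5 signalling, 2 were higher in long-induced Esr1 mice, both milk protein genes: Csn2, as above (log2 change 4.36, limma adjusted p = 0.0329), and Wap, at 752 ± 945 TPM in Esr1 mice and 23.1 ± 52.3 TPM in CYP19A1 mice (4.98, adjusted p = 0.0106). The SDs show that these milk transcripts differed widely between libraries of a model. Of 14 glucocorticoid targets, 2 were higher there: Fkbp5, a receptor co-chaperone, at 21.9 ± 13.5 TPM in Esr1 mice and 10.3 ± 1.97 TPM in CYP19A1 mice (0.88, limma adjusted p = 0.046), and the metallothionein gene Mt2, at 83.4 ± 135 and 22 ± 13.2 TPM in the same order (1.29, adjusted p = 0.0442). The kinase gene Sgk1 was higher at 24 than at 12 months in uninduced CYP19A1 mice, at 35.3 ± 2.38 TPM, against 19.4 ± 10.2 TPM (0.96, limma adjusted p = 0.0484). Replicates 1 and 3 of that 12-month group had 67.2% and 22.2% ribosomal RNA, which lowers their other TPM. Of all tested genes 844 were called higher and 13 lower there. Rescaled by the median of ratios, 0.322% of tested genes were called, 37 higher and 28 lower. These lists were called at shares to be read against the 4.15% and 2.95% of all tested genes called between long-induced and between uninduced models, and the 4.24% called with age in CYP19A1 mice.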

How the data were processed

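RNA was measured in 48 libraries of mouse thoracic mammary gland. Per the labels' protocols, stranded libraries were prepared after rRNA removal and sequenced from a single end (75 bp) to a stated minimum of 50 M reads. Tools named in the submitters' processing notes are STAR (2.7.9a), RSEM (1.3.1), Trim Galore (0.6.5) and FastQC (0.11.9), with the build mm10. The deposited values are TPM from the authors, 1 column per library in 1 table, so a count test could not be used and no counting interval is given.

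The 20209 genes that reached 1 TPM in 3 or more libraries were kept. Values were taken as log2(TPM + 1), which understates changes of scarce genes, and limma 3.58.1 (R 4.3.3, intensity trend, two-sided) fitted group means over the 48 libraries, giving 20 comparisons. The fit was tested on simulated data with known changes. Relations and exact tests were computed in Python 3.11.15 with numpy 2.4.6 and scipy 1.17.1. Alternatives were a pseudocount of 0.1, no filter, median-of-ratios or protein-coding rescaling, fits on the compared groups alone, a replicate block, libraries under 10% ribosomal RNA, and leaving out each library. The ribosomal RNA-like features included the row of Lars2, and the protein-coding total left out Lars2 and the mitochondrially encoded genes. The luminal scale, the ratios and the pairs without Esr1 were chosen after seeing the data. The members and lists were chosen with earlier results of these data known. Named genes are the 6 members, up to 4 called genes of a list with the largest change (otherwise its 2 most abundant), and the 5 genes most like each member, of which 1 is not reported here. No 2 libraries were identical (highest r between libraries 0.975).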

Additional observations from a re-analysis of the deposited data

How the results depend on the processing

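Of 2166 values of the 6 genes recomputed under other settings, 266 changed sign, and in 1 of these either value was called: Nr3c1 in uninduced Esr1 over CYP19A1 mice was -0.26 with protein-coding rescaling. In long-induced Esr1 over CYP19A1 mice the number of members called, 1 as deposited, was 2 with a pseudocount of 0.1, 0 with no filter, 3 under either rescaling (Foxa1, Pgr and Nr3c1), 2 with a replicate block, 2 with only the compared groups, 2 relative to the luminal score and 0 among libraries under 10% ribosomal RNA; leaving out 1 library gave 0 to 2. The shares of all tested genes called there were 4.15% as deposited, 9.84% by the median of ratios and 8.02% by protein-coding TPM. In uninduced mice 4 members were called with protein-coding rescaling (Esr1, Pgr, Foxa1 and Nr3c1), against 0 as deposited. The shares of all tested genes were 20% (543 higher and 3494 lower) and 2.95%. Libraries under 10% ribosomal RNA leave 1 library of the uninduced CYP19A1 group at 12 months, and the changes among them are given above. Leaving out 1 library gave 0 to 5 for CYP19A1 mice at 12 months after 1 week, 0 to 1 for uninduced CYP19A1 mice at 24 over 12 months, and 0 to 2 for the difference in response to 1 week, each highest without uninduced CYP19A1 replicate 1 at 12 months, the age comparison also without its replicate 2. For the fits with these highest counts, the shares of all genes called are given above with each result. The replicate block changed no other call. Its numbers do not pair libraries (median r of deviations 0.008 for the same number and -0.010 for others).

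For r with Esr1, the values that no longer passed were as follows. In 12- and 18-month libraries they were 0.253 (Pgr), 0.375 (Prlr), 0.198 (Foxa1), 0.40 (Gata3) and 0.522 (Nr3c1), and for deviations from group means 0.189, 0.345, 0.336, 0.371 and 0.452 in that order. Among libraries under 10% ribosomal RNA they were 0.186, 0.178, 0.278, 0.0944 and 0.285. With median-of-ratios rescaling they were 0.0885 (Pgr), 0.219 (Prlr) and -0.029 (Gata3, reversed), and with protein-coding rescaling 0.242 (Pgr) and 0.187 (Gata3). Gata3 also had 0.298 at 24 and 30 months and 0.182 without the 2 farthest libraries. The cause was not tested. TPM hold no depth, and Foxa1 was under 1 TPM in 11 libraries.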

Other observations

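The group with the lowest mean Pgr as deposited (the second lowest after rescaling by the median of ratios) also had Areg below all libraries of its uninduced group, a pattern singled out after its values were seen. At 12 months, Areg, which encodes the growth factor amphiregulin, an estrogen target in mammary epithelium, was at 0.29, 0.42 and 0.14 TPM after 1 week of CYP19A1 induction, against 6.91, 13.65 and 22.92 TPM without it (log2 change -3.46, SE 0.98, limma adjusted p = 0.548). Tnfsf11, which encodes the progesterone-induced ligand RANKL, was at 0.00, 0.03 and 0.07 TPM in the induced libraries, against 0.00, 0.10 and 17.79 TPM in the uninduced ones, with overlap (limma adjusted p = 0.548). Wnt4, another progesterone target, was at 0.99, 2.35 and 0.54 TPM after induction, against 0.71, 2.81 and 4.98 TPM without it, and overlapped. None of these genes passed, and all 3 induced libraries carried much ribosomal RNA. The median log2 change of all tested genes there was -0.32, and how many of them separated as Areg did was not counted.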
